A study of Mus musculus with 70 samples.

Results

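The flocculus (FL), a lateral lobule of the vestibulocerebellum, was set against 3 lobules of the vermis, the midline strip of the cerebellar cortex. The comparison was defined by tissue label alone: the 4 FL libraries were compared with the 11 libraries of the central lobule II (CENT2, 4 libraries), the culmen lobules IV and V (CUL4,5, 4 libraries) and the uvula (UVU, 3 libraries), each lobule with equal weight. These 15 libraries belong to a series of 70, of which 57 came from 18 regions of the adult mouse brain and the rest from embryonic brain and embryonic stem cells. All adult libraries were bulk RNA-Seq of tissue punched from frozen coronal brain sections of untreated male C57BL/6NTac mice at P56, and the labels give no transgene or treatment for any group. Each library held tissue pooled from several mice, and the same mice could contribute to more than 1 region. The spread between libraries is therefore the spread between pools and not between single animals. The main test treated all libraries as independent, so any mice shared by FL and lobule pools were not modelled. The cerebellar nuclei (CBN, 3 libraries), the nucleus of the solitary tract (NTS, 4 libraries), the dorsal-vagal complex (DVC, 3 libraries) and the parabrachial nucleus (PB, 3 libraries) of the same series served to check how much neighbouring tissue the FL punches held.

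The cerebellar cortex has the same layered plan in every lobule: granule cells relay mossy fiber input to Purkinje cells, whose axons are the only output of the cortex, and interneurons, Bergmann glia and unipolar brush cells complete the circuit. The flocculus receives vestibular and visual signals and adjusts reflex eye movements. Its Purkinje cells are known to be largely of the zebrin-positive kind, and unipolar brush cells are known to be dense in the vestibulocerebellum, to which the uvula also belongs. The flocculus is attached to the brainstem by a peduncle and lies close to the middle cerebellar peduncle, the choroid plexus and the cochlear and vestibular nuclei.

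The FL libraries held 15386232 to 19070652 estimated counts and the lobule libraries 13409041 to 19058602. Levels are given as TPM, the abundance of a gene's transcripts scaled by their length and by the library total, so that levels of different genes can be compared. Of 34677 genes in the deposited table, 16456 reached 1 TPM in at least 3 of the 15 libraries and were tested with limma on log2(TPM + 0.5). A gene was called when the Benjamini-Hochberg adjusted p was under 0.05 and the log2 fold change was past 1 in either direction. On this scale a fold change understates the change of a gene with low TPM. In bulk tissue, fewer cells of a type and less RNA per cell cannot be told apart, and TPM are shares of a library, so that a large class of transcripts that is higher in FL lowers the share of the others. The median log2 fold change of all genes tested was -0.13 on the TPM scale and was -0.00085 after scaling by TMM factors, and changes below are read against that shift.

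The 4 FL libraries held far more white matter transcripts than the cortex of the vermis. The summed TPM of 20 myelin and oligodendrocyte genes was 11160, 13204, 14608 and 13580 in FL 1 to 4. In the lobules the same sum had a lowest value of 2183, a median of 3297 and a highest value of 4941, so the groups did not overlap, and the FL mean was 3.97 times the mean of the lobules. The FL sums were at 56.7% to 74.2% of the CBN mean, at 67.4% to 88.3% of the NTS mean and at 82.7% to 108% of the PB mean, that is, close to those of punches from the brainstem. Markers of brainstem neurons and of the hindbrain Hox code were also present in FL. The summed Hox level was 9.2 to 21.6 TPM in FL, which was 30.4% to 71.4% of the CBN mean, 8.71% to 20.4% of the NTS mean and 2.58% to 6.06% of the DVC mean. The CBN mean rested on 1 library, since CBN 1 to 3 were at 68.4, 14.3 and 8.15 TPM, with every FL library below CBN 1 and above CBN 3.

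The lobule libraries were not uniform in the same markers, and 4 of them stood apart from their own lobule. CENT2 1 and CENT2 2 had summed brainstem neuron markers of 345.3 and 155 TPM against 13.4 and 36.1 TPM in CENT2 3 and 4, and all 4 CENT2 libraries were high in ependymal markers, at 235 to 946 TPM against at most 119 TPM in FL. CUL4,5 1 had a summed meningeal fibroblast level of 5042 TPM, with 1438 to 1592 TPM in the other CUL4,5 libraries. UVU 1 had a summed choroid plexus level of 2698 TPM and a summed Hox level of 29.6 TPM, against 133 and 145 TPM and 1.596 and 0.660 TPM in UVU 2 and 3. Without these 4 libraries the genes called higher went from 3 of 23 tested to 7 of 19 among neuropeptides. Among neuromodulator receptors they went from 4 of 37 to 7 of 31, and among all genes from 511 of 16456 to 679 of 15902. The filter was applied again without these libraries, so the counts are not over the same genes. The median of the immediate early genes went from 0.20 to -0.12. Other values without these 4 libraries stand beside the results they touch.

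**Figure D1:**
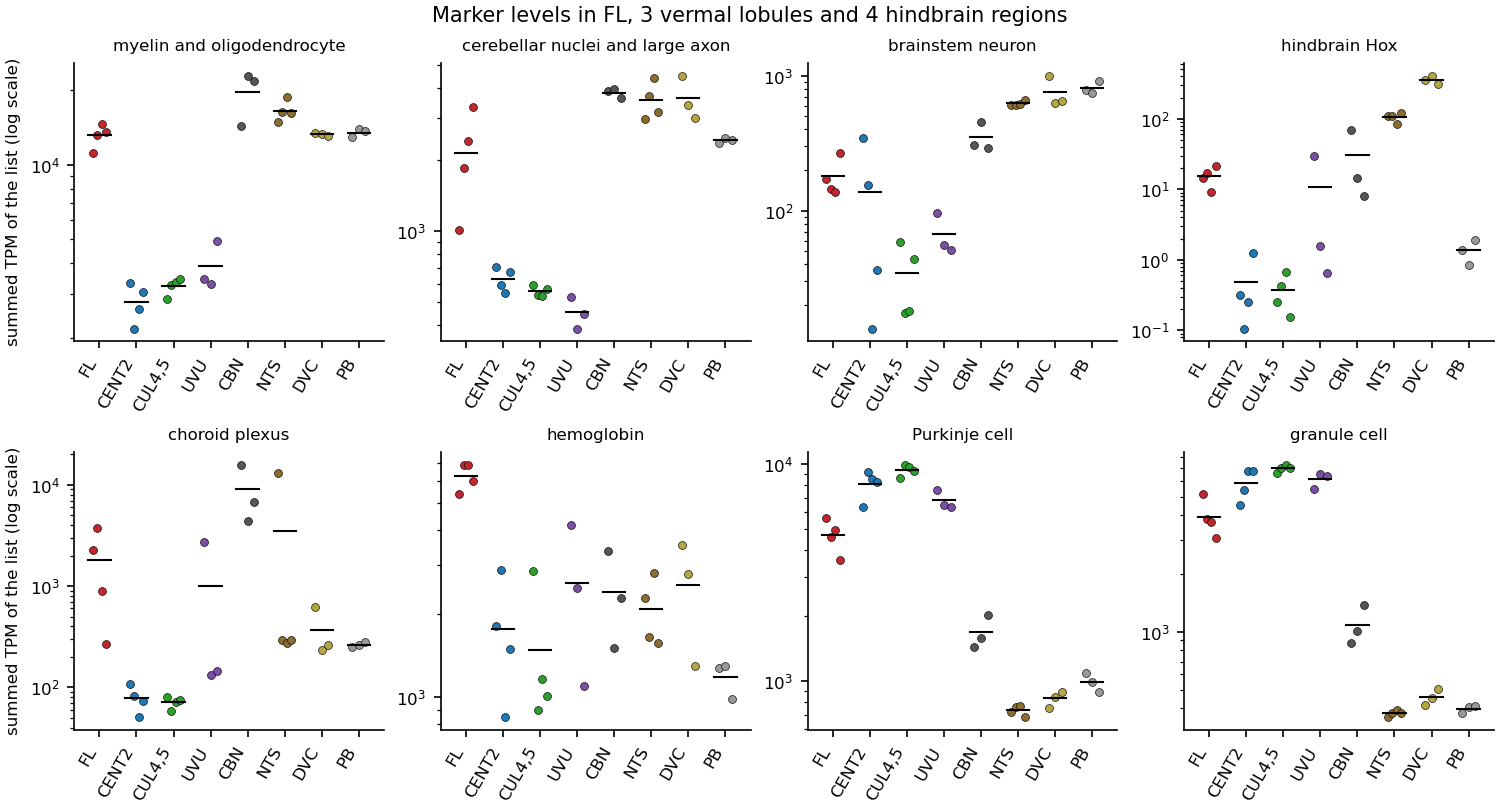
Summed TPM of marker lists of other tissues and of cerebellar neurons, on a log axis, with 1 point for each library of FL, CENT2, CUL4,5, UVU, CBN, NTS, DVC and PB and a bar at the mean. All 4 FL points lie above all 11 lobule points for myelin and below all 11 for Purkinje cell markers, while CENT2 1 and 2 reach the FL range for brainstem neuron markers and UVU 1 reaches it for the choroid plexus and Hox sums.

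Against the mean of the lobules, 511 genes were called higher in FL (3.11% of those tested) and 170 were called lower (1.03%). The split was 75.0% higher, and after TMM scaling it was 645 higher and 111 lower, or 85.3% higher. Without the 4 libraries that stood apart, 679 genes were called higher and 179 lower. Without FL 1, 535 genes were called higher and 285 lower. FL 1 was the library nearest to the lobules: it was the lowest of the 4 FL libraries in 317 of the 511 higher genes and the highest of them in 95 of the 170 lower genes, while FL 4 was the highest in 247 of the higher genes. In 290 of the 511 higher genes all 4 FL libraries lay above all 11 lobule libraries, as did 4.16% of all genes tested, and in 71 of the 170 lower genes all 4 lay below, as did 9.24% of all genes tested.

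**Figure D2:**
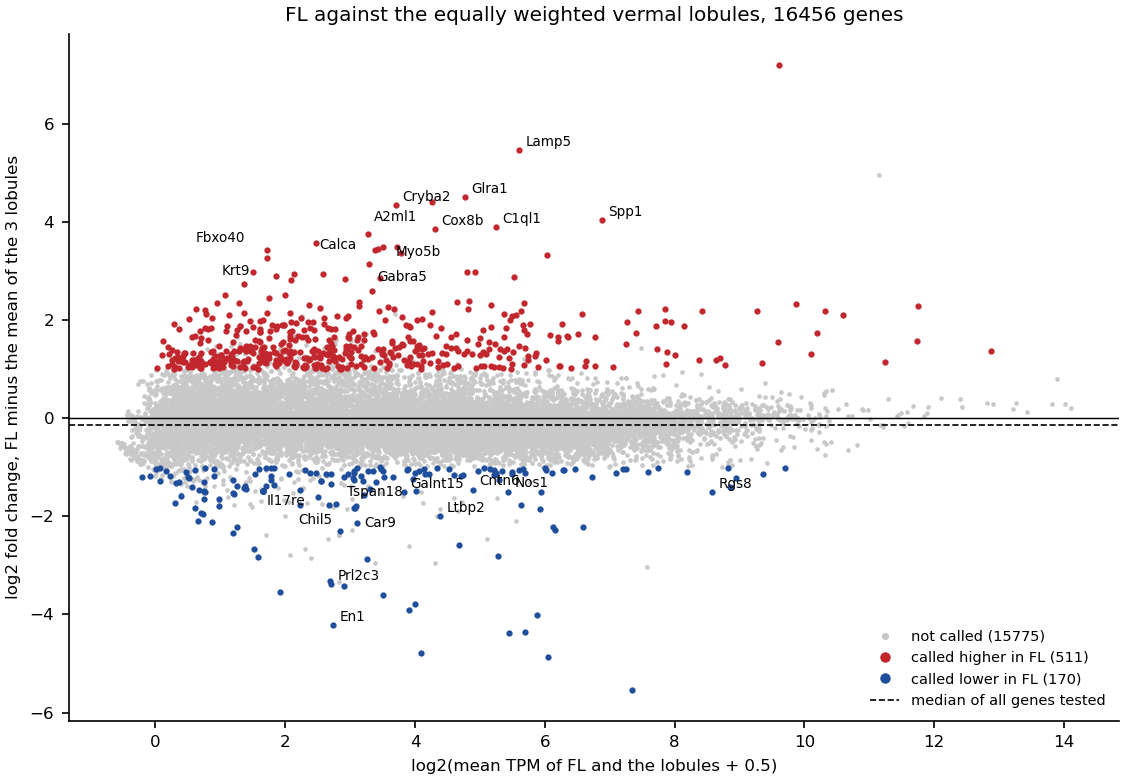
Log2 fold change of FL minus the mean of the 3 lobules against the log2 of the mean TPM + 0.5, with 1 point for each of 16456 genes. The 511 genes called higher are red and the 170 called lower are blue, the dashed line is the median of all genes at -0.13, and the labelled genes are among the largest changes whose FL libraries do not overlap those of the lobules.

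The comparisons with each lobule share the 4 FL libraries and are given side by side. Against CENT2, 472 genes were called higher in FL (2.87%) and 438 lower (2.66%). Without CENT2 1 and 2, CUL4,5 1 and UVU 1, the lower calls against CENT2 fell to 286. Against CUL4,5, 733 genes were called higher (4.45%) and 378 lower (2.3%), and against UVU, 482 were called higher (2.93%) and 194 lower (1.18%). After TMM scaling the counts were 582 higher and 354 lower against CENT2, 910 and 224 against CUL4,5, and 621 and 126 against UVU. Leaving out FL 1 raised the lower calls to 571 against CUL4,5 and to 335 against UVU. Of the 511 genes called higher against the mean of the lobules, 260 were called higher against each of the 3, and 26 of the 170 lower genes were called lower against each.

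The genes called higher in FL were mostly at least as high in the cerebellar nuclei or the brainstem. In 381 of the 511, at least 1 of CBN, NTS, DVC and PB had a mean above that of FL, and FL was above all of them in 130, or 25.4%, against 36.6% of all genes tested. Among the 18 adult regions, CBN had the highest mean in 156 of the 511 genes (30.5%), against 5.72% of all genes tested, and FL itself in 83 (16.2%), against 2.74% of all genes tested. Since the 511 were chosen as higher in FL than in the lobules, a lobule could seldom be their highest region. CENT2, CUL4,5 and UVU were highest in 1, 0 and 2 of them. That choice by itself raises the shares of the other regions, FL and CBN among them. The part of neighbouring tissue in any single change was not tested.

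All 20 myelin and oligodendrocyte genes were called higher in FL, with a median log2 fold change of 1.94 beside -0.13 for all genes. Mbp, which encodes myelin basic protein, was at 4624, 5616, 6543 and 5849 TPM in FL 1 to 4. In the lobules its level ranged from 643 to 1936 TPM with a median of 1184 TPM, and the log2 fold change was 2.28 (SE 0.15, adjusted p = 3.01e-07, limma). Mobp, which encodes a further myelin protein, rose by a similar amount, 2.33, and Cnp, an enzyme of oligodendrocytes, by the least of the list, at 1.19. Every member was also higher in CBN than in FL.

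Genes of large projection neurons and their axons rose as a group. Of 9 tested members of the list for cerebellar nuclei and large axons, 8 were called higher, with a median of 1.98. The neurofilament gene Nefm was at 225, 463, 604 and 1008 TPM in FL 1 to 4 and at 76.1 to 141 TPM in the lobules, with a median of 119 TPM, and its log2 fold change was 2.19 (SE 0.25, adjusted p = 2.35e-05, limma). FL 1 was the lowest and FL 4 the highest of the 4, as they were for the summed level of the list, at 1007, 1844, 2391 and 3335 TPM, where the lobules lay between 388 and 708 TPM. Spp1, which encodes the secreted protein osteopontin (chromosome 5, 104435118 to 104441050), was at 69.7, 168, 378 and 274 TPM in FL and at 4.59 to 22.5 TPM in the lobules. The log2 fold change of Spp1 was 4.04 (SE 0.35, adjusted p = 2.45e-06, limma), and CBN, at a mean of 406 TPM, was the highest adult region for it. Slc17a6, the vesicular glutamate transporter of many brainstem and nuclear neurons, was at 27.3 to 60.8 TPM in FL and at 0.233 to 29.4 TPM in the lobules, where CUL4,5 1 was highest, so the groups overlapped.

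Of 18 brainstem neuron genes 12 passed the filter on low values and 4 were called higher, namely Glra1, Calca, Slc17a6 and Slc6a5. Glra1, which encodes the alpha 1 subunit of the glycine receptor (chromosome 11, 55514238 to 55608198), was at 38.3, 43.5, 37.9 and 82.0 TPM in FL. In the lobules its median was 0.951 TPM and its highest value, in CENT2 1, was 15.3 TPM, so the groups did not overlap. The log2 fold change was 4.50 (SE 0.60, adjusted p = 7.52e-05, limma), and NTS had the highest level at a mean of 188 TPM. Calca, the gene of calcitonin and CGRP, was at 40.7 TPM in FL 1 and at 12.6, 13.5 and 10.4 TPM in FL 2 to 4, all above the highest lobule value of 2.36 TPM. The serotonergic genes Tph2 and Slc6a4 were close to 0 in FL, at 0.463 and 0.236 TPM at most, while CENT2 1 had 146 and 78.4 TPM. Without the 4 libraries that stood apart, 7 brainstem neuron genes passed the filter and 6 were called higher. Those 4 were the highest lobule libraries in the summed level of this list, and genes that had passed through them dropped out. The counts of the 2 fits are therefore over different genes and cannot be compared.

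Of 16 Hox genes, 7 passed the filter on low values and 4 were called higher, with a median of 1.29. Without the 4 libraries that stood apart, 5 passed and all 5 were called higher, with a median of 2.20. Among the lobule libraries kept there, the summed Hox level was over 1 TPM only in UVU 2 and CENT2 4. No Hox gene could therefore reach 1 TPM in 3 libraries without FL, so the filter itself favoured genes higher in FL. That count and median are also over different genes from those of the main fit and cannot be compared with them. Hoxb2 was at 1.93, 3.62, 2.52 and 4.13 TPM in FL and at 0 to 1.06 TPM in the lobules, where UVU 1 was highest, and its log2 fold change was 2.502 (SE 0.27, adjusted p = 1.54e-05, limma). Behind these levels stood 24 to 78 estimated counts in each FL library. Hoxb3 (2.15), Hoxa2 (2.12) and Hoxa3 (1.29) were called with the FL range overlapping UVU 1 only. Hoxc4, Hoxa4 and Hoxb5 were not called, with log2 fold changes of 1.22, 0.98 and 0.87. For these 3 genes UVU 1, at 3.52, 2.63 and 4.49 TPM, was above all FL libraries. Hoxb2 also had its highest level outside FL, at a mean of 21.5 TPM in DVC, 11.1 TPM in NTS and 0.122 TPM in PB.

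**Figure D3:**
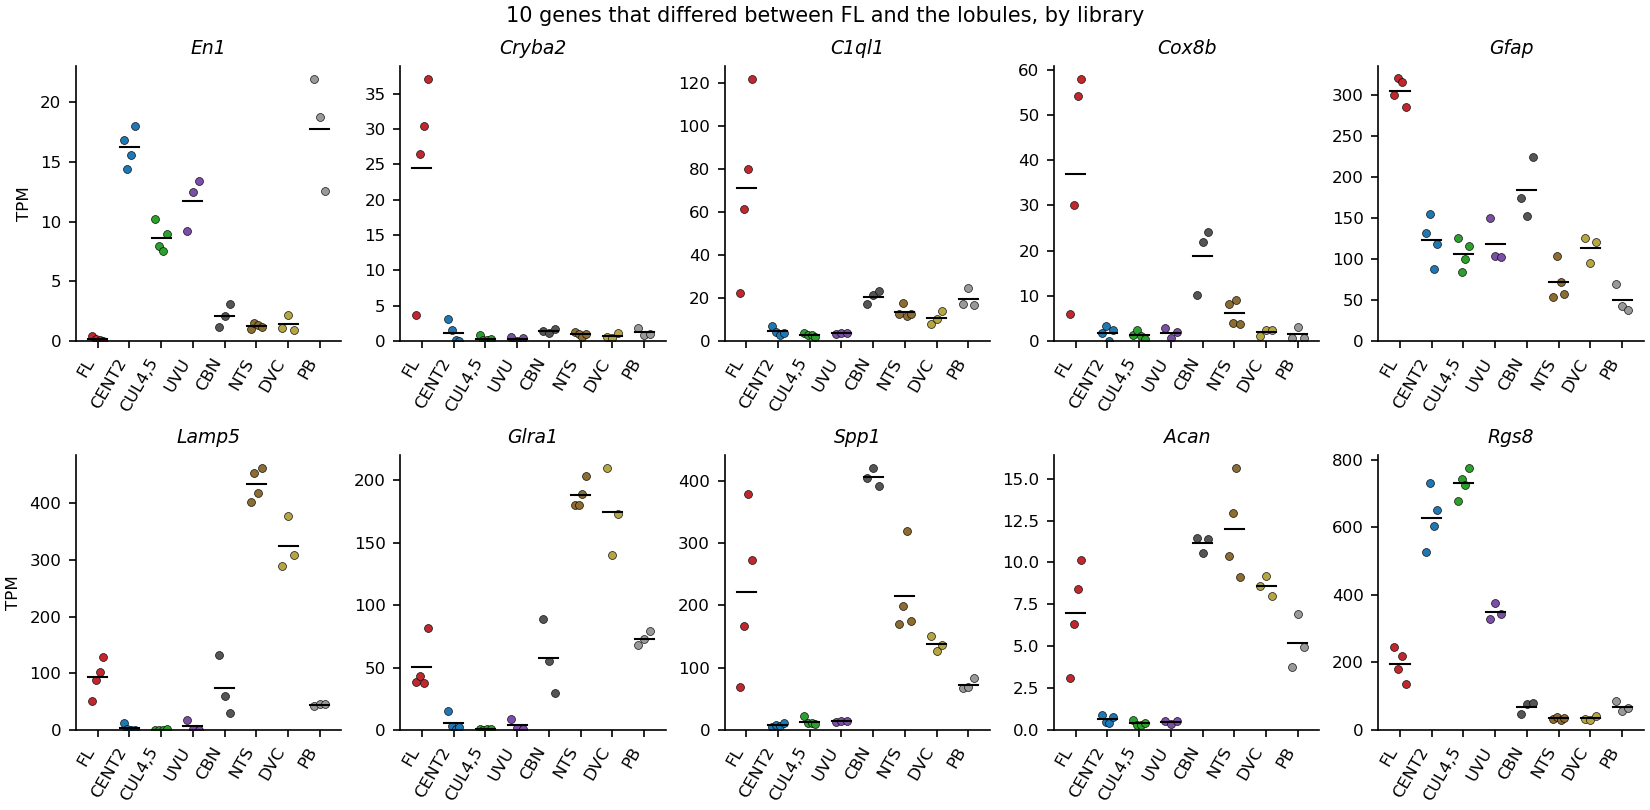
TPM of 10 genes in each library of FL, CENT2, CUL4,5, UVU, CBN, NTS, DVC and PB on linear axes from 0, with 1 point for each library and a bar at the mean. Lamp5, Glra1, Spp1 and C1ql1 are higher in every FL library than in any lobule library, and En1 is at or below 0.395 TPM in FL and at or above 7.53 TPM in every lobule library.

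Of the genes that changed most, Lamp5 had the largest increase among those whose groups did not overlap. Lamp5 encodes a membrane protein of the LAMP family found in neurons (chromosome 2, 136052239 to 136069917). It was at 50.5, 88.8, 103 and 128 TPM in FL 1 to 4, while the lobules had a median of 0.716 TPM and a highest value of 18.2 TPM in UVU 1. Its log2 fold change was 5.47 (SE 0.72, adjusted p = 7.01e-05, limma), and it was 6.34 without the 4 libraries that stood apart. The caudal brainstem held more, with a mean of 434 TPM in NTS and 325 TPM in DVC. Gabra5, which encodes a GABA-A receptor subunit, rose by 3.14 on the log2 scale. A2ml1, a protease inhibitor gene, was raised by 3.76, the motor protein gene Myo5b by 3.48, the F-box gene Fbxo40 by 3.43 and the keratin gene Krt9 by 3.26. CENT2 1 had the highest lobule level of A2ml1 and Gabra5.

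Some of the genes with large increases were at their highest adult level in FL. C1ql1, which encodes a secreted organizer of synapses known from climbing fibers, was at 22.2, 61.3, 80.0 and 122 TPM in FL 1 to 4 and at 2.03 to 7.21 TPM in the lobules. Its log2 fold change was 3.90 (SE 0.33, adjusted p = 1.97e-06, limma), and CBN, at 20.5 TPM, was the highest of the 4 hindbrain regions set beside FL. Cryba2, a crystallin gene, was at 3.73, 26.5, 30.5 and 37.0 TPM in FL against a highest lobule value of 3.19 TPM. Cox8b, a subunit of cytochrome c oxidase, was also higher in every FL library, with 6.00, 30.1, 54.2 and 57.9 TPM against 3.31 TPM at most. In each of these 3 genes FL 1 was the lowest of the FL libraries, and in each it was still above every lobule library.

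In 18 genes every FL library was above all 53 other adult libraries. They were singled out after their values were seen, and 14 of them were called higher. They included Cryba2 and the astrocyte filament gene Gfap. Gfap was at 299, 320, 315 and 285 TPM in FL and at 84.6 to 155 TPM in the lobules, with a log2 fold change of 1.41 (SE 0.14, adjusted p = 6.57e-06, limma). CBN, NTS, DVC and PB had Gfap means of 184, 71.5, 114 and 50.0 TPM. Gfap was the sole member called of 16 genes of Bergmann glia and astrocytes, whose median was -0.0068 and turned to 0.13 after TMM scaling.

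The hemoglobin genes and Alas2 had a higher mean in FL than in any other adult region. Of 7 listed genes 5 were in the table and tested, and all 5 were called higher, with a median log2 fold change of 1.73. Hba-a1 was at 2036, 2770, 2545 and 2411 TPM in FL and at 301 to 1301 TPM in the lobules, with UVU 1 highest. Alas2, the first enzyme of heme synthesis in red cells, moved the same way with a log2 fold change of 1.58. Reads of the alpha copies Hba-a1 and Hba-a2, and of the beta copies Hbb-bs and Hbb-bt, can be shared, so the split between copies is uncertain. Summed over the list, FL held 5382 to 6889 TPM and the lobules 845 to 4182 TPM, and no CBN, NTS, DVC or PB library passed 3546.5 TPM.

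Of 6 genes of oligodendrocyte precursors, Neu4 and Bmp4 were called higher, and the median was 0.74. None of 10 microglial genes was called at the fold required, although 9 were higher with an adjusted p under 0.05 (limma), against 11.5% of all genes, their median was 0.82, and the summed level was above all lobule libraries. Under TMM scaling 3 of them were called, and without the 4 libraries that stood apart 4 were. None of 10 vascular genes was called (median 0.22). Of 10 meningeal fibroblast genes 4 were called higher (median 0.62), namely Mgp, Ogn, Igf2 and Ptgds, and CUL4,5 1 overlapped FL in each of the 4. Of 13 choroid plexus genes 9 were called (median 1.70, and 2.59 over the 11 that passed the filter without the 4 libraries), led by the thyroxine carrier Ttr at 1734, 2961, 608 and 30.2 TPM in FL, while the lobules ranged from 0.097 TPM to 2029 TPM in UVU 1. No ependymal gene was called against the mean of the lobules, while 6 of 6 were called lower against CENT2, 5 higher against CUL4,5 and 3 higher against UVU. Without the 4 libraries that stood apart, 3 of the 6 were called higher.

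Of 20 Purkinje cell genes, 5 were called lower and none higher, 18 were lower with an adjusted p under 0.05 (limma) at any size, as were 30.3% of all genes, and the median was -0.76. Rgs8, a regulator of G protein signaling concentrated in Purkinje cells (chromosome 1, 153653025 to 153700323), was at 247, 179, 218 and 136 TPM in FL. In the lobules it had a lowest value of 329, a median of 650 and a highest value of 777 TPM, so the groups did not overlap, and the log2 fold change was -1.51 (SE 0.12, adjusted p = 1.36e-06, limma). Rgs8 was lower in FL against CENT2 (-1.71) and CUL4,5 (-1.94), and against UVU the change of -0.87 did not reach the fold required. Car8, a carbonic anhydrase-related protein that binds the IP3 receptor, fell by 1.21 and Itpr1, that receptor, fell by 1.02, and Foxp2 and Arhgef33 were also called. None of the 20 was called lower against UVU alone, and under TMM scaling 2 of the 20 were called lower against the mean of the lobules. Calb1 and Pcp2, classical Purkinje cell markers, had log2 fold changes of -0.56 and -0.75 and were not called. The summed Purkinje level was 5650, 4585, 4951 and 3622 TPM in FL 1 to 4 and no less than 6313 TPM in the lobules.

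Of 16 granule cell genes, Chn2 and Etv1 were called lower, at -1.14 and -1.03. At any size, 15 were lower at an adjusted p under 0.05 (limma), as were 30.3% of all genes, and the median was -0.81. Neither call was kept under TMM scaling, where the count was 0 and the median -0.67, or with edgeR or DESeq2, while 5 were called lower without the 4 libraries that stood apart. Gabra6, the GABA-A receptor subunit of granule cells, was at 421, 296, 298 and 227 TPM in FL against a lowest lobule value of 408 TPM, so that FL 1 alone overlapped. Slc17a7, the vesicular glutamate transporter of granule cells and of their parallel fibers, was the member that did not move down, with 459 to 524 TPM in FL, 338 to 548 TPM in the lobules and a log2 fold change of 0.14. Of 13 interneuron genes none was called lower and Slc6a5 and Klhl1 were called higher, with a median of -0.06.

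**Figure D4:**
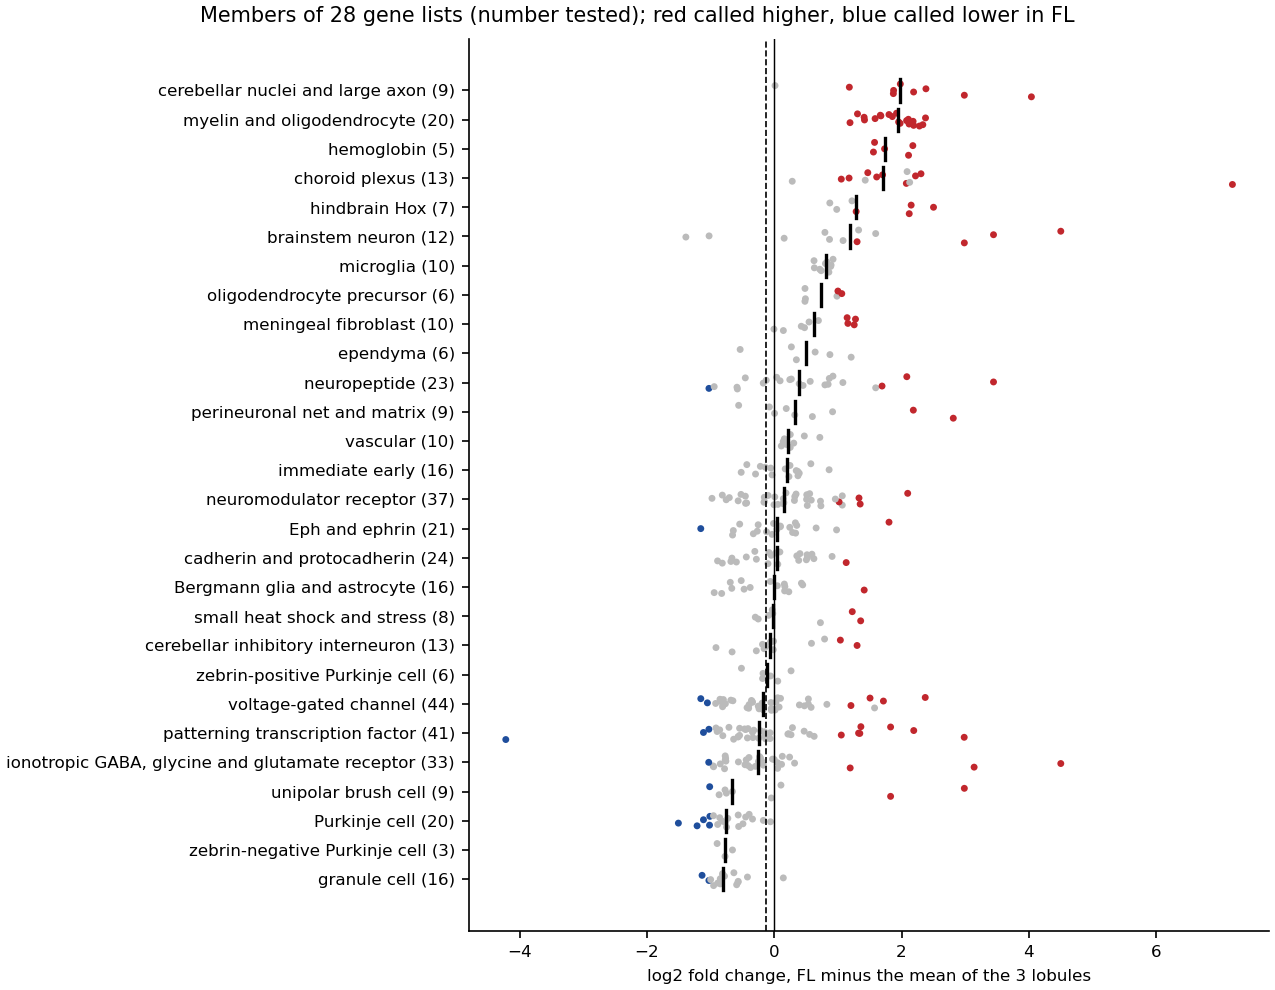
Log2 fold change of FL minus the mean of the 3 lobules for the tested members of 28 gene lists, with 1 point for each gene, called genes in red (higher) or blue (lower) and a line at the median of all genes, -0.13. The myelin list lies wholly to the right, with all 20 genes called, and the Purkinje cell and granule cell lists lie mostly to the left, with medians of -0.76 and -0.81.

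None of the 6 zebrin-positive or 3 zebrin-negative genes was called against the mean of the lobules, with medians of -0.12 (0.020 after TMM scaling) and -0.77. Aldoc, which encodes zebrin II itself, was at 3081, 2646, 2769 and 2319 TPM in FL, where CENT2, CUL4,5 and UVU had means of 1751, 2326 and 4347 TPM. The log2 difference from CENT2 was 0.63 (adjusted p = 0.00234, limma) and that from UVU was -0.69 (adjusted p = 0.00235), neither past the fold required. Aldoc is also an astrocyte gene and was at means of 1925 to 2424 TPM in CBN, NTS, DVC and PB, where Purkinje cells are lacking or rare. Plcb3, the phospholipase of zebrin-positive cells, was at 21.6 to 33.5 TPM in FL and at means of 25.0, 29.8 and 44.2 TPM in CENT2, CUL4,5 and UVU. Slc1a6, the Purkinje cell glutamate transporter EAAT4, was at 92.0 to 202 TPM in FL and at means of 100, 152 and 202 TPM in the same lobules.

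Sphk1, Gabbr2 and Prkcd, the other zebrin-positive genes, had log2 fold changes of 0.26, -0.52 and -0.18. On the zebrin-negative side, Plcb4 was at 183, 163, 152 and 144 TPM in FL, below all lobule libraries, with differences of -0.93 from CENT2 and CUL4,5 and of -0.46 from UVU. Ebf2, a transcription factor gene, was called lower against CENT2 (-1.43) and CUL4,5 (-1.39), and its level of 2.35 to 4.28 TPM in FL overlapped that of UVU, with a mean of 2.83 TPM. The summed zebrin-negative level was 188 to 270 TPM in FL and 282 to 495 TPM in the lobules, without overlap, but most of that sum was Plcb4. With Plcb4 left out it was 44.5 to 89.4 TPM in FL and 73.1 to 150 TPM in the lobules, with overlap. The summed level of all Purkinje genes did not overlap.

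Of 9 unipolar brush cell genes, Slc17a6 and Lmx1a were called higher, Dgkg was called lower and the median was -0.66. Slc17a6 also stands in the brainstem neuron list and the list for cerebellar nuclei, where the same call was counted. Under TMM scaling Dgkg, at -0.88, was not called. Eomes, the transcription factor gene that defines these cells in the adult cerebellum, was at 26.8, 19.4, 13.5 and 17.1 TPM in FL. CENT2 and CUL4,5 had Eomes means of 14.4 and 13.5 TPM and UVU a mean of 39.5 TPM, and FL was called lower than UVU with a log2 difference of -1.04 (adjusted p = 0.0146, limma). The differences of 0.44 and 0.46 from CENT2 and CUL4,5 did not pass the test. Lmx1a was at 5.76, 4.89, 2.29 and 3.22 TPM in FL, at means of 0.295 and 0.209 TPM in CENT2 and CUL4,5 and at 2.80 TPM in UVU, but CBN, at 4.18 TPM, had more. Calb2, Plcb4 and Sema5a had log2 fold changes of -0.87, -0.77 and 0.10, and Calb2 and Plcb4 are also expressed by granule or Purkinje cells.

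**Figure D5:**
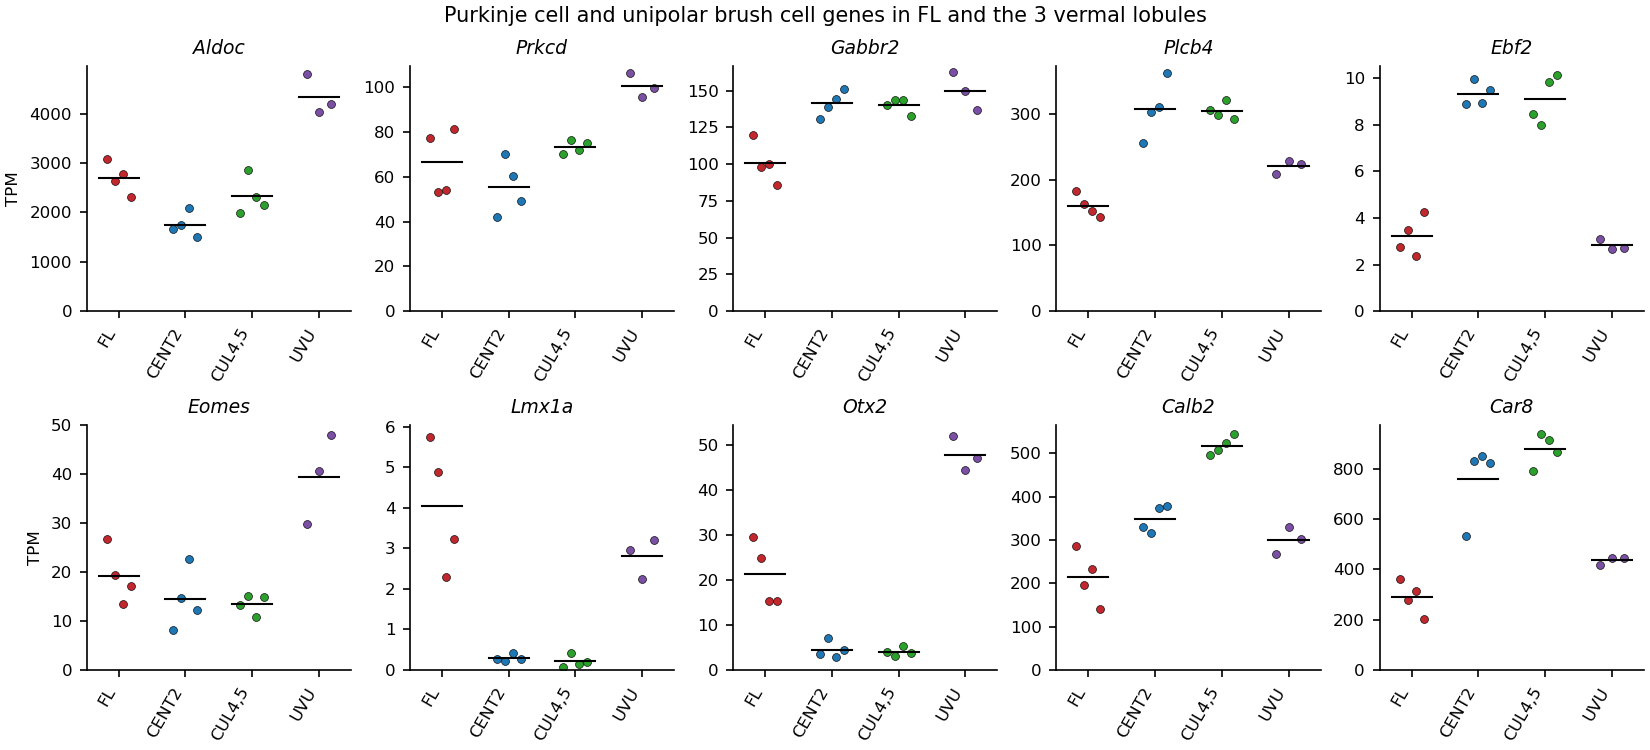
TPM of zebrin-positive, zebrin-negative and unipolar brush cell genes in each library of FL, CENT2, CUL4,5 and UVU, with Otx2 and Car8, as 1 point for each library and a bar at the mean, on linear axes from 0. FL lies between CENT2 and UVU for Aldoc, below every lobule library for Plcb4, and below UVU for Eomes.

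Patterning transcription factors changed in both directions, with 7 of 41 called higher and 3 lower and a median of -0.25. En1, the engrailed homeobox gene that marks the midbrain and anterior hindbrain and persists in the cerebellum (chromosome 1, 120602418 to 120607992), had the largest decrease of any gene that was neither predicted nor a pseudogene. It was at 0.395, 0.168, 0.075 and 0.038 TPM in FL, from 8, 4, 2 and 1 estimated counts. The lobules ranged from 7.53 to 17.99 TPM, from 134 to 396 counts, and CENT2, CUL4,5 and UVU had means of 16.2, 8.64 and 11.7 TPM. The log2 fold change was -4.22 (SE 0.14, adjusted p = 5.32e-10, limma), and was -4.67, -3.79 and -4.20 against CENT2, CUL4,5 and UVU. With FL this close to 0 the size of the fold depended on the pseudocount and scaling, and it ranged from -6.14 to -3.45 over the alternatives other than the myelin covariate. CBN, NTS and DVC had means of 2.13, 1.26 and 1.42 TPM, all above every FL library, and PB had 17.7 TPM. The paralog En2 was at 82.1, 50.6, 44.7 and 38.9 TPM in FL and at 63.4 to 106 TPM in the lobules, and its change of -0.64 was not called.

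The other patterning genes called lower were Foxp2 (-1.11) and Etv1 (-1.03), which also stand in the Purkinje and granule cell lists. Under TMM scaling neither was called, at -0.99 and -0.89, which left En1 as the only patterning gene called lower. Meis2, a homeobox gene of many brainstem neurons, rose by 2.98 and Tshz2 by 2.19, with the highest lobule level of both in CENT2 1. The nuclear receptor gene Nr2f1 was at 76.0, 67.4, 56.9 and 58.0 TPM in FL and at 20.1 to 37.3 TPM in the lobules, with a log2 fold change of 1.34, and CBN, NTS, DVC and PB, at means of 28.8 to 43.7 TPM, were all below FL. Its relative Nr2f2 was at 39.9 TPM or more in each FL library, at means of 23.9 and 27.8 TPM in CENT2 and CUL4,5 and at 8.70 TPM in UVU. Otx2 was called higher against CENT2 and CUL4,5 and lower against UVU (-1.21), which had a mean of 47.8 TPM, and Otx2 is also a choroid plexus gene. Lmx1b, the seventh, rose by 1.36 with FL 3 at 0.583 TPM and below CENT2 1, 2 and 4 and CUL4,5 3.

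Against the 3.11% and 1.03% of all genes called higher and lower, calls among genes of excitability and signaling were 3 or 4 higher and 0 to 2 lower in each list. Of 44 voltage-gated channel genes, Hcn4, Scn4b, Hcn2 and Kcnq5 were called higher and Cacna1i and Scn2a lower, with a median of -0.18. Hcn4, a pacemaker channel gene, was at 6.62, 13.3, 17.6 and 19.8 TPM in FL and at 1.35 to 3.90 TPM in the lobules (log2 fold change 2.37, SE 0.26, adjusted p = 1.62e-05, limma). Of 33 GABA, glycine and glutamate receptor genes, Glra1, Gabra5 and Gabra3 were called higher and Gria1 lower, with a median of -0.25, and their summed level was below that of every lobule library. Under TMM scaling Gria1, at -0.89, was not called, and 1 voltage-gated channel gene was called lower. Of 37 neuromodulator receptor genes, Oprd1 (2.10), Chrna4 (1.35), Htr7 (1.33) and Adra2a (1.02) were called higher. CENT2 1 overlapped FL for Chrna4 and Htr7. Of 23 neuropeptide genes, Calca, Pthlh (2.08) and Sst (1.69) were called higher and Cck lower, at -1.65 and -1.56 against CENT2 and CUL4,5 and 0.13 against UVU. Cck was not called under TMM scaling, at -0.89.

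Matrix and adhesion genes followed with 2 of 9 perineuronal net genes called, Acan (2.81) and Hapln2 (2.18). Acan, the core protein of perineuronal nets, was at 3.09, 6.30, 8.44 and 10.2 TPM in FL and at no more than 0.909 TPM in the lobules. Of 24 cadherin genes Cdh6 was called higher, and of 21 Eph and ephrin genes Efnb3, shares close to the 3.11% of all genes. Efnb3 was at 73.9 to 84.5 TPM in FL and 15.4 to 32.4 TPM in the lobules, and Ephb2 was called lower (-1.16). No immediate early gene of 16 was called (limma), 1 had an adjusted p under 0.05, and Arc, at 0.86, was above all lobule libraries. Of 8 heat shock and stress genes Cryab (1.36) and Uchl1 (1.23) were called higher. Of 177 obesity-associated genes that the study listed and that were tested here, 5 were called higher and 1 lower, with a median of -0.13, the same as for all genes.

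Among the other genes called lower, Ltbp2, a binding protein of latent TGF-beta, was at 11.5, 7.77, 8.60 and 4.32 TPM in FL and at 21.5 to 51.8 TPM in the lobules, with a log2 fold change of -1.99 (SE 0.20, adjusted p = 7.34e-06, limma). Nos1, the neuronal nitric oxide synthase of granule cells and interneurons, was at 25.7, 19.9, 23.9 and 18.2 TPM in FL and at 45.1 to 83.3 TPM in the lobules, with a change of -1.50. The adhesion gene Cntn6 fell by 1.45, the tetraspanin gene Tspan18 fell by 1.75 and the glycosyltransferase gene Galnt15 fell by 1.51. The carbonic anhydrase gene Car9 (-1.83) was highest in CUL4,5, whereas Il17re, an interleukin 17 receptor subunit (-1.78), and the chitinase-like gene Chil5 (-1.78) were highest in UVU. Il17re was 18.3 TPM in UVU on average, 5.56 TPM in CENT2 and 1.35 to 3.57 TPM in FL.

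The largest decreases were in predicted genes and pseudogenes, whose reads can be shared with near-identical copies and whose levels are therefore uncertain. Of the 170 genes called lower, 72 were of this kind (42.4%), against 32 of the 511 called higher (6.26%) and 14.6% of all genes tested. Of 28 genes with a log2 fold change below -2, 24 were predicted genes or pseudogenes, and their median level was 0.0026, 0.019, 0.451 and 0.0055 TPM in FL 1 to 4. The lobule libraries had medians of 18.3 to 39.0 TPM, other than CENT2 3 and 4, at 7.61 and 2.32 TPM. Prl2c3 (-3.38) belongs to a family of near-identical prolactin-like genes and is uncertain for the same reason, as are Gm13552, Gm14401, Gm12715 and Rpl30-ps8 among the genes that fell and Gm20458 among those that rose. Without the 72 predicted genes and pseudogenes, 98 genes were called lower, and Prl2c3 is still among the 98.

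A fit that held the mean log level of the myelin list constant called no gene in either direction against the mean of the lobules. That covariate was the mean of the log values over the genes of the list and not their summed TPM. The fit had 806 genes at an unadjusted p under 0.05 (limma), where the fit without the covariate had 8216. Since the FL and lobule libraries did not overlap in myelin, myelin content and lobule cannot be told apart in these 15 libraries. The fitted values in that model were 3.76 for Lamp5, 2.15 for Glra1, 0.14 for Mbp, -4.48 for En1, -0.72 for Rgs8 and -1.54 for Nos1. The median of the Purkinje list went from -0.76 to 0.008 and that of the granule cell list from -0.81 to -0.42.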

How the data were processed

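Bulk RNA-Seq had been made from punched and pooled mouse brain tissue as strand-specific, single-read mRNA libraries. The authors demultiplexed reads with CASAVA 1.8.2 and quantified them with kallisto on mouse GRCm38 transcripts. They deposited transcript-level estimated counts, transcript TPM and gene TPM, the latter summed over transcripts. Whether strand was used in the quantification is not given in the sources used here, so overlapping antisense genes may share reads.

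Gene TPM were the main data. Genes with 1 TPM or more in 3 of the 15 libraries were fitted as log2(TPM + 0.5) with 1 mean for each of FL, CENT2, CUL4,5 and UVU, and FL minus the unweighted mean of the 3 lobules was tested with limma 3.58.1 (R 4.3.3) and Benjamini-Hochberg adjustment over all 16456 genes. Errors of fold changes are standard errors of that fit. For edgeR 4.0.16 and DESeq2 1.42.0, the authors' estimated counts were rounded and summed by gene through GENCODE M21, which matched 107987 of 109282 transcripts (98.8%). Coordinates are those of GENCODE M21 on GRCm38. Precision is limited by 4, 4, 4 and 3 pooled libraries of 13409041 to 19070652 counts. P-values measure the spread between pools.

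Named genes were, in each direction, the 15 largest called changes with no overlap between FL and the 11 lobule libraries and at least 5 TPM in the higher group; up to 4 called members of each of 28 lists (or the 2 most abundant where none was called); and all Hox, zebrin and unipolar brush cell genes. Some genes that this rule names are not reported here. Arc, Arhgef33, Cacna1i, Calb1, Cnp, En2, Gabra6, Hba-a2, Il10ra, Lmx1b, Loxl2, Ltf, Nr2f1, Nr2f2, Ostn, Otx2, Pcp2, Prph, Scn2a, Slc17a7, Slc5a7, Slc6a4, Tnfrsf11b and Tph2 fell outside this rule and were chosen after their values were seen. Comparison, lists and rule were chosen with earlier results of these data known. Counts for FL against the lobules were simulated (15511 genes tested), with some genes changed by 2 on the log2 scale. Of these, limma called 182 of the 198 that were tested, and it called 0 unchanged genes. The simulation gave each unchanged gene the same mean share in every library and a dispersion of 0.05. It therefore does not show how often calls arise where lobules or single libraries differ. Replicate numbers were not used to pair libraries. The median correlation of deviations was -0.0064 over 21 same-number pairs and -3.4e-05 over 63 other pairs. However, 5 of the same-number pairs and 4 of the other pairs were over 0.1. The highest values were 0.24 and 0.20, so some same-number pairs shared deviations. Alternatives changed the pseudocount, filter, scaling, tool, libraries and covariates. The authors' transcript TPM were used only to check the gene sums.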

Additional observations from a re-analysis of the deposited data

Results flagged for a closer look

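In groups of 4 libraries, 243 values were checked for a single library lying far from the other 3 relative to the range, and 21 were so. Chance alone marks about 1 in 20 groups. No explanation was tested.

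CENT2 1 was high in Lamp5 (11.8 TPM, the others at most 1.81), Glra1 (15.3 TPM, at most 2.77), A2ml1 (4.55 TPM, at most 0.841), Myo5b (4.65 TPM, at most 1.77) and Gm14401 (9.16 TPM, at most 2.55), and in the summed neuropeptide level (1660 TPM, at most 1412). CENT2 2 was the low library for Gm20458 (0 TPM, the others at least 14.1) and Hoxb2 (0 TPM, at least 0.037). The Hoxb2 values of CENT2 stood on 0 or 1 estimated count in each library. CENT2 3 was high in Sphk1 (9.17 TPM, at most 5.88), and CENT2 4 in Krt9 (0.093 TPM, the others at 0).

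CUL4,5 1 was high in Spp1 (22.5 TPM, at most 10.6), Krt9 (0.411 TPM, at most 0.042), Hoxb2 (0.042 TPM, the others at 0) and in the summed meningeal (5042 TPM, at most 1592) and hemoglobin (2856 TPM, at most 1165) levels. CUL4,5 2 was high in Hoxc4 (0.161 TPM, the others at 0) and CUL4,5 3 in Hoxb3 (0.628 TPM, the others at 0) and Gm20458 (1.75 TPM, at most 0.0041). The values flagged in CUL4,5 for Hoxb2, Hoxc4 and Hoxb3 stood on 1, 2 and 4 estimated counts. Such traces near 0 do not set a library apart.

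Within FL, Glra1 was high in FL 4 (82.0 TPM, the others 37.9 to 43.5), Calca in FL 1 (40.7 TPM, 10.4 to 13.5) and Gm13552 in FL 2 (0.225 TPM, the others at or close to 0). The Gm13552 value stood on 1 estimated count. Glra1 and Calca are genes called higher in FL, and each remained above all 11 lobule libraries in the lowest FL library.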

How the results depend on the processing

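The counts of called genes depended on tool and filter, and most on whether the myelin covariate was in the fit. FL and the lobules did not overlap in that covariate, so the loss of calls does not show its cause. With edgeR and DESeq2, 904 and 898 genes were higher in FL than in the mean of the lobules (CENT2 735 and 726; CUL4,5 1209 and 1223; UVU 777 and 837). With a filter of 5 TPM, 338 were higher (CENT2 304 higher and 249 lower). TMM scaling gave 111 lower (CUL4,5 224, UVU 126) and sample quality weights 259 lower (UVU 332). With the myelin covariate, 0 were higher and 0 lower against the mean, CENT2 and CUL4,5, and 1 and 1 against UVU, and the values of A2ml1 (-0.32), Gm20458 (-0.86), Klhl1 (-0.037), Chrna4 (-1.52), Htr7 (-0.44) and Uchl1 (-0.28) turned negative. Leaving out CENT2 1 and 2, CUL4,5 1 and UVU 1, a choice made after the data were seen, gave 286 lower than CENT2. Leaving out each library in turn gave 127 to 285 lower than the mean, 278 to 571 lower than CUL4,5 and 136 to 335 lower than UVU, the highest counts without FL 1 and the lowest without FL 4. As a mean of log2(TPM + 0.5), microglial markers differed by 0.79 and ependymal markers by 0.47, the latter higher in FL where the summed TPM was lower, at 0.377 of the lobules. The cause of these shifts was not tested.

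With the replicate block, 529 genes were higher and 175 lower and all 83 called genes named by the rule and reported stayed called; the block is not supported by the design. A batch block, whose order within a region is an assumption, gave 510 and 166. Under the myelin covariate all 83 lost the call and 6 of them turned sign. Under the other settings none of those tested turned sign, and between 0 and 16 lost the call, the most without FL 4. With the filter of 5 TPM only 71 of the 83 were still tested, and all 71 stayed called. FL and lobules did not overlap in myelin, each library is a pool, and depth leaves genes near 1 TPM imprecise.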

Other observations

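Among the genes for which every FL library was above all other adult libraries, several are known from blood or immune cells or secreted matrix: the lactoferrin gene Ltf had a mean of 3.93 TPM in FL and 0.237 TPM in the lobules, the interleukin 10 receptor gene Il10ra 6.18 and 2.69 TPM, the osteoprotegerin gene Tnfrsf11b 7.07 and 3.62 TPM and the lysyl oxidase-like gene Loxl2 2.60 and 1.00 TPM. The muscle-derived hormone gene Ostn was at 2.44, 1.83, 1.85 and 1.78 TPM in FL and at no more than 0.803 TPM in any lobule library. Ltf, Il10ra, Loxl2 and Ostn were called higher in FL and Tnfrsf11b, at 0.95 on the log2 scale, was not. These genes were chosen after their values were seen.

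Prph, the peripherin gene, was at 0.683, 0.259, 0.577 and 24.8 TPM in FL 1 to 4, and Slc5a7, the choline transporter gene, at 0.941, 0.474, 0.312 and 12.9 TPM. FL 4 was the FL library high in both. Among the lobules UVU 1 was highest in Prph, at 3.51 TPM, and CENT2 1 in Slc5a7, at 9.21 TPM. Neither gene was called, and both were chosen after their values were seen.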
